A study of Homo sapiens with 4 samples.

Results

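The 10 genes described here form the insulin receptor and FOXO axis: the receptor genes INSR and IGF1R, the adaptor genes IRS1 and IRS2, the transcription factor genes FOXO1, FOXO3 and FOXO4, and PIK3IP1, CCNG2 and RICTOR, which respond to FOXO factors. They were taken by name, through their Ensembl identifiers, as 10 of the 20263 genes in the deposited count table. HCT116, a human colon carcinoma line, was given the compound 7A or DMSO, its solvent control, for 24 h in the same serum-containing medium. The series title calls 7A a derivative of neratinib, an irreversible inhibitor of the EGFR family kinases, and no source used here gives its dose. Each group has 2 libraries. No label says that they came from separate cultures, and the p-values therefore describe the spread among these 4 libraries alone, which could be technical. Total counts were 31120459 and 29769568 with DMSO and 49924044 and 61605005 with 7A.

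Insulin and the insulin-like growth factors bind receptor tyrosine kinases, which phosphorylate IRS proteins, and these recruit PI3-kinase. The lipid that this kinase makes brings AKT to the membrane, where PDK1 and the RICTOR-containing complex mTORC2 activate it. Active AKT phosphorylates FOXO1, FOXO3 and FOXO4, which then bind 14-3-3 proteins and leave the nucleus. In the nucleus, FOXO factors are known to raise transcription of genes such as INSR and IRS2, so the pathway feeds back on its own receptors, and of arrest genes such as CCNG2.

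The INSR, IGF1R, FOXO1 and RICTOR genes fell with 7A, CCNG2 rose, and IRS1, IRS2, FOXO3, FOXO4 and PIK3IP1 did not pass the test. A gene rose or fell where its adjusted p was under 0.05 in edgeR's quasi-likelihood test over all 14026 genes that passed a filter on low counts, and all 10 passed that filter. Of the 10, 1 rose and 4 fell, against 23.9% and 24.6% of all genes tested, so the total of 5 called is close to the 48.4% called in the whole table. The groups did not overlap for 8 of the 10, against 78.4% of all genes tested. The total and the share without overlap are near the background. By direction, 40% were lower and 10% higher, which with 10 genes is a description of these genes and was not tested. In bulk RNA, fewer cells with a transcript and less of it per cell cannot be told apart. Levels are in CPM, counts per 1e+06 of the TMM-scaled library total, and each change is on the log2 scale, 7A relative to DMSO, ± its standard error. Library totals alone as scaling move the median change of all genes from -0.026 to -0.29, and upper-quartile scaling moves it to -0.14.

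**Figure D1:**
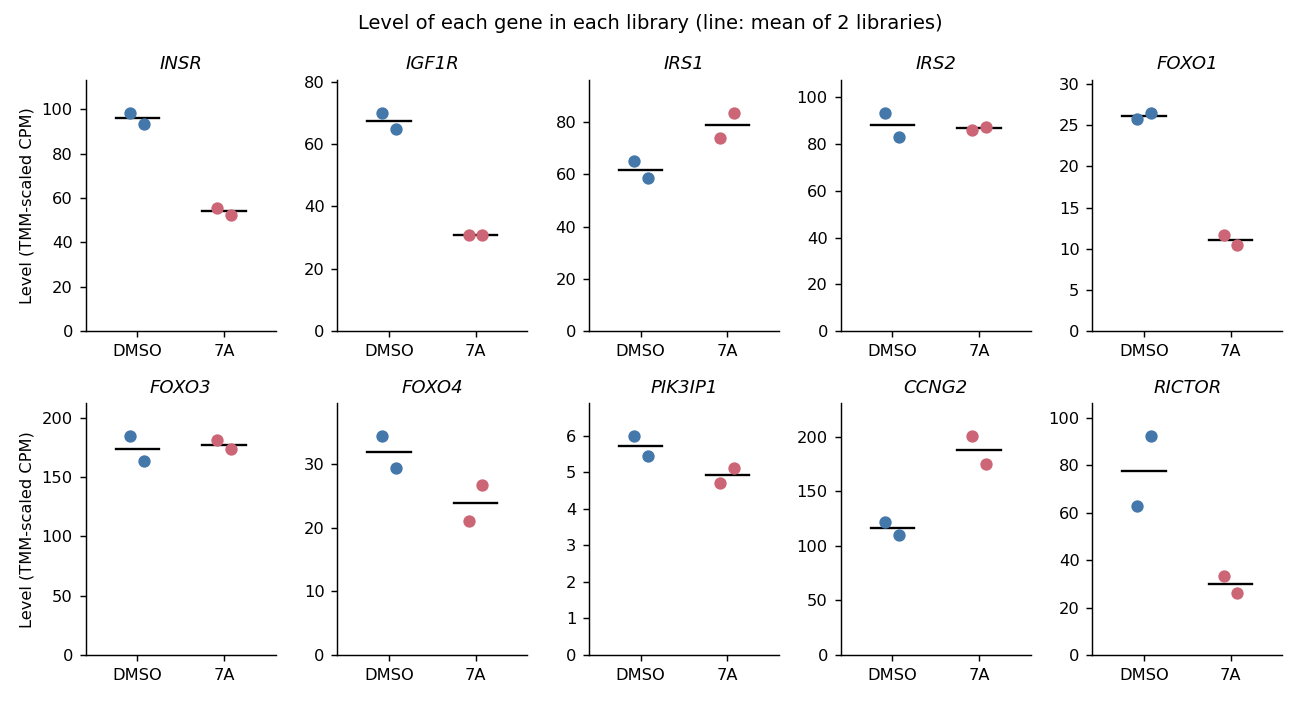
Level of each of the 10 genes in every library, in TMM-scaled CPM on an axis that starts at 0 (points: the 2 DMSO and the 2 7A libraries; lines: group means). INSR, IGF1R, FOXO1 and RICTOR lie lower in both 7A libraries than in either DMSO library, CCNG2 lies higher, and the groups overlap for IRS2 and FOXO3.

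Both receptor genes fell. INSR (ENSG00000171105, chromosome 19, 7112255 to 7294034 on GRCh38), which encodes the insulin receptor, read 98.5 and 93.1 CPM with DMSO and 55.7 and 52.2 CPM with 7A. Both 7A libraries lay well under both DMSO libraries, and replicates were within a few CPM of each other. The change was -0.83 ± 0.13, or 1.78-fold lower (edgeR adjusted p 0.00257). IGF1R (ENSG00000140443, chromosome 15, 98648539 to 98964530), which encodes the receptor for IGF1 and IGF2, read 70.1 and 64.8 CPM with DMSO and 30.9 and 31.0 CPM with 7A. The 7A libraries were nearly equal and far below the others. Its change was -1.12 ± 0.14, or 2.18-fold lower (edgeR adjusted p 0.00121). Their close relative INSRR, the insulin receptor-related receptor gene, had 0 and 7 counts with DMSO and 2 and 0 with 7A and was not tested.

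Neither adaptor gene passed the test. IRS1 (ENSG00000169047, chromosome 2, 226731317 to 226799759), whose protein docks PI3-kinase on the active receptor, read 65.0 and 58.4 CPM with DMSO and 73.7 and 83.6 CPM with 7A. The 7A libraries were the higher ones, without overlap, but the change of 0.35 ± 0.14 did not pass (edgeR adjusted p 0.0741). Without 7A replicate 1 it was 0.46 and passed (edgeR adjusted p 0.0484). IRS2 (ENSG00000185950, chromosome 13, 109752698 to 109786568), the other main adaptor and a FOXO-responsive gene in liver, read 93.4 and 83.0 CPM with DMSO and 86.0 and 87.4 CPM with 7A. The 7A values lay between the DMSO values, with a change of -0.025 ± 0.13 (edgeR adjusted p 0.887). IRS4, a further adaptor of the family, had 0 counts in every library, which allows up to 0.101 CPM in the shallowest.

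Among the FOXO genes, FOXO1 fell, and FOXO3 and FOXO4 did not pass the test. FOXO1 (ENSG00000150907, chromosome 13, 40469953 to 40666597), the main FOXO factor of insulin action in liver, read 25.7 and 26.5 CPM with DMSO and 11.7 and 10.4 CPM with 7A. The replicates were close and the groups far apart, with a change of -1.24 ± 0.16, or 2.36-fold lower (edgeR adjusted p 0.00133). FOXO3 (ENSG00000118689, chromosome 6, 108559835 to 108684774), a factor tied to stress responses and cell death, read 185 and 164 CPM with DMSO and 181 and 174 CPM with 7A. Both 7A values lay inside the DMSO range, and the change was 0.028 ± 0.12 (edgeR adjusted p 0.866). Its sign turned with the scaling, to -0.24 with library totals alone and -0.084 with upper-quartile scaling. Counts of FOXO3 can hold reads of its near-identical pseudogene FOXO3B, which was not analysed here.

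FOXO4 (ENSG00000184481, chromosome X, 71096197 to 71103535), the third FOXO factor, read 34.4 and 29.4 CPM with DMSO and 21.0 and 26.6 CPM with 7A. Both 7A libraries were lower, without overlap, but they differed from each other by more than the groups' nearest values did. Its change of -0.42 ± 0.18 did not pass (edgeR adjusted p 0.0872). It passed with library totals alone (-0.69, edgeR adjusted p 0.0176), with upper-quartile scaling (-0.53, edgeR adjusted p 0.0431) and with the correction for GC and length given below. It was smaller without 7A replicate 1 (-0.23, edgeR adjusted p 0.312) and without DMSO replicate 1 (-0.29, edgeR adjusted p 0.365). FOXO6, the remaining family member, known mainly from brain, read 14.2 and 13.4 CPM with DMSO and 11.8 and 14.3 CPM with 7A (-0.079 ± 0.18, edgeR adjusted p 0.732).

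Of the FOXO-responsive genes, CCNG2 rose and RICTOR fell. CCNG2 (ENSG00000138764, chromosome 4, 77157151 to 77433388) encodes cyclin G2, an atypical cyclin found in arrested cells. It read 122 and 110 CPM with DMSO and 201 and 175 CPM with 7A. Both 7A libraries were above both DMSO libraries, with a change of 0.69 ± 0.13, or 1.62-fold higher (edgeR adjusted p 0.00522). Its paralog CCNG1, a p53 target, read 63.8 and 69.1 CPM with DMSO and 56.4 and 60.4 CPM with 7A (-0.19 ± 0.13, edgeR adjusted p 0.277).

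RICTOR (ENSG00000164327, chromosome 5, 38937919 to 39074408), which encodes the defining scaffold of mTORC2, read 62.9 and 92.3 CPM with DMSO and 33.5 and 26.1 CPM with 7A. The DMSO libraries differed by more than those of any other of the 10 genes, yet both stayed above the 7A libraries. The change was -1.38 ± 0.23, or 2.61-fold lower (edgeR adjusted p 0.0044), and the call was lost without 7A replicate 2 (-1.22, edgeR adjusted p 0.0587). PIK3IP1 (ENSG00000100100, chromosome 22, 31281593 to 31292534), whose protein restrains PI3-kinase, was the least abundant of the 10. It read 5.98 and 5.45 CPM with DMSO and 4.71 and 5.12 CPM with 7A, from 178 to 283 counts per library. The 7A values were lower without overlap, by -0.22 ± 0.20 (edgeR adjusted p 0.385).

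RefSeq promoter windows (GRCh38.p14, 250 bases before to 50 after a transcript start) were matched for all 10 genes, 14 windows in all. FOXO3 has 4 of them and PIK3IP1 has 2. The 2 of PIK3IP1 overlap, as do 2 of FOXO3, so the 14 are not all separate stretches. The windows of the 4 genes that fell and of CCNG2 are shown because these genes carry the changes. Capitals mark the GC box GGGCGG, the letters bound by SP1-type factors, and the E-box CACGTG, each on either strand. Neighbouring GC boxes overlap in INSR and RICTOR. RefSeq starts can differ from the GENCODE ends given above.
INSR, minus strand, chr19:7294365-7294664: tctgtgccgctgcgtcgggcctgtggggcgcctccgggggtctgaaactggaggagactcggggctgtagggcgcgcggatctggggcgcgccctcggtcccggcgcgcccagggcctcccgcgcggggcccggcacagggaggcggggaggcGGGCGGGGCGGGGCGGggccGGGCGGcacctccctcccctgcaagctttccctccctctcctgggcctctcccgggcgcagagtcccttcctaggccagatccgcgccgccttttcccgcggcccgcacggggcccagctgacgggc
IGF1R, plus strand, chr15:98648289-98648588: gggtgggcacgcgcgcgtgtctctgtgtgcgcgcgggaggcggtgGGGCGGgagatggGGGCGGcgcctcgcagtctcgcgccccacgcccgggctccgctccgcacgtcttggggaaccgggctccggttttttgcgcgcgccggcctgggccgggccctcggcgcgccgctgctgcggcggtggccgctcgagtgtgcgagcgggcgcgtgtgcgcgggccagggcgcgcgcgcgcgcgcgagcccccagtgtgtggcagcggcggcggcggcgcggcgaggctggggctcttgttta
FOXO1, minus strand, chr13:40666592-40666891: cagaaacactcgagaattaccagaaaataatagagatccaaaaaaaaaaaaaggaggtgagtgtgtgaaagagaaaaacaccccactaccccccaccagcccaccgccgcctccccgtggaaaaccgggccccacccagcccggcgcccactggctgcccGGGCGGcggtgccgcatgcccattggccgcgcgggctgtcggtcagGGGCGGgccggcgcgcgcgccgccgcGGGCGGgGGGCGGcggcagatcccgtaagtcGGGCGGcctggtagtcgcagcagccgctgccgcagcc
RICTOR, minus strand, chr5:39074350-39074649: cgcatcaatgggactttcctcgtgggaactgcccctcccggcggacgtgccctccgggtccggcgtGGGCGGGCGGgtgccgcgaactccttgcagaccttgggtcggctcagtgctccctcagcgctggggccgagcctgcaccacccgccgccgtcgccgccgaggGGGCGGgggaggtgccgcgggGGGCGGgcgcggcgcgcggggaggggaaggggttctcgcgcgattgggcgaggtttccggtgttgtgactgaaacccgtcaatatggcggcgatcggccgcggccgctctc
CCNG2, plus strand, chr4:77156957-77157256: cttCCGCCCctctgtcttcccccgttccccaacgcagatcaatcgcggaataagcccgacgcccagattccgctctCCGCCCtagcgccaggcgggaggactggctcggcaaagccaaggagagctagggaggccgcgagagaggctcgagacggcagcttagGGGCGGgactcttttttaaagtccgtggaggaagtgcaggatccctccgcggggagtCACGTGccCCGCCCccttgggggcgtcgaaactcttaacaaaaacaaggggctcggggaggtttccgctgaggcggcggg

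All 5 windows held the GC box, as did 10 of the 14 windows, from 8 of the 10 genes, and 45.0% of all 35116 promoter windows. INSR, IGF1R and RICTOR were 78.3%, 79.7% and 74.0% G and C, FOXO1 68.0% and CCNG2 64.7%, against a median of 58.7% over all windows. The E-box stood in CCNG2 and IRS1, in 2 of the 14 windows, and in 7.26% of all windows. The FOXO consensus GTAAACA, on either strand, was in FOXO4 and PIK3IP1, in 2 of the 14 windows, and in 3.42% of all windows. Its core TAAACA, which the consensus contains, was in IGF1R, FOXO3, FOXO4 and PIK3IP1, in 4 of the 14 windows, and in 12.3% of all windows. The insulin response element CAAAACA, another sequence FOXO factors bind, was in IRS2, in 1 of the 14 windows, and in 4.92% of all windows. The CRE (TGACGTCA), the E2F site (TTTGGCGC) and an amino acid response element (TGATGCAA) were in none of the 14 windows and in 1.85%, 0.652% and 0.866% of all.

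The stretches around the 3 full FOXO-type matches are shown because these letters are those searched for FOXO factors. The genes that hold them, IRS2, FOXO4 and PIK3IP1, did not pass the test. A match is a description of letters and not a site. Capitals mark the match.
IRS2, minus strand, chr13:109786590-109786650: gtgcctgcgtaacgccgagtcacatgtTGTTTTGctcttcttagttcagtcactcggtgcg
FOXO4, plus strand, chrX:71095847-71095900: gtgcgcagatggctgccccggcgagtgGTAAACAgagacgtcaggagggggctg
PIK3IP1, minus strand, chr22:31292439-31292499: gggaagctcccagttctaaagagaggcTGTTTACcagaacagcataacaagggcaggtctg

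Per kilobase of merged exons (CPM per kb, the scale on which genes can be compared), FOXO3 was the most abundant with DMSO, at 22.5 ± 1.94 (SD, n = 2). CCNG2 followed at 15.5 ± 1.12, IRS2 at 10.8 ± 0.91, FOXO4 at 9.24 ± 1.03 and INSR at 9.17 ± 0.36 CPM per kb. Next came IRS1 at 6.20 ± 0.47, RICTOR at 5.73 ± 1.53, IGF1R at 4.84 ± 0.27, FOXO1 at 4.19 ± 0.09 and PIK3IP1 at 1.5 ± 0.10 CPM per kb. The neighbours FOXO4 and INSR, IRS1 and RICTOR, and RICTOR and IGF1R overlapped between libraries, and the other neighbours did not. With 7A, CCNG2 at 25.1 ± 2.42 and FOXO3 at 23.0 ± 0.68 CPM per kb overlapped at the top. INSR ranked 6 at 5.16 ± 0.24, followed by IGF1R at 2.22 ± 0.0056 and RICTOR at 2.20 ± 0.39, which overlapped, and FOXO1 at 1.78 ± 0.15 CPM per kb. Merged exons can be longer than the transcript that the cells use, so this order is approximate.

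The ratio of related genes within a library does not depend on how libraries are scaled. It can still move with the length trend described below, and these ratios were not corrected for GC and length. With that correction FOXO1 changed by -0.97, FOXO4 by -0.58 and FOXO3 by 0.31, against -1.24, -0.42 and 0.028 without it. FOXO1 had 0.139 and 0.162 counts per FOXO3 count with DMSO and 0.0647 and 0.0599 with 7A. The 7A ratios were under the lower of the DMSO ratios by more than the replicates differed, a log2 difference of -1.27 ± 0.12 (SE, n = 2 per group). FOXO4 had 0.186 and 0.180 counts per FOXO3 count with DMSO and 0.116 and 0.153 with 7A, a log2 difference of -0.46 ± 0.20 that ran from -0.66 to -0.25 with 1 library left out.

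INSR had 1.40 and 1.44 counts per IGF1R count with DMSO and 1.80 and 1.68 with 7A. The 7A ratios were the higher ones, a log2 difference of 0.29 ± 0.05, while both genes fell. IRS1 had 0.695 and 0.703 counts per IRS2 count with DMSO and 0.857 and 0.956 with 7A, a log2 difference of 0.37 ± 0.08. For each of the 4 pairs the groups did not overlap, and the two-sided exact permutation p was 0.333, the smallest that 2 against 2 allows, and 0.333 adjusted over the 4 pairs. The share of other gene pairs without overlap was not computed, and for single genes it was 78.4% of those tested. FOXO1 over FOXO3 and FOXO4 over FOXO3 share a gene and are not independent. RICTOR against RPTOR, the scaffold gene of mTORC1, was added after the values were seen and is given without a test. Their ratio was 1.28 and 1.89 with DMSO and 0.426 and 0.307 with 7A. RICTOR fell, as given above, and RPTOR rose from 49.1 and 48.7 CPM to 78.6 and 84.9 CPM (0.74 ± 0.13, edgeR adjusted p 0.00398). With the correction for GC and length given below, RICTOR changed by -0.74 and RPTOR by 0.94, against -1.38 and 0.74 without it.

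**Figure D2:**
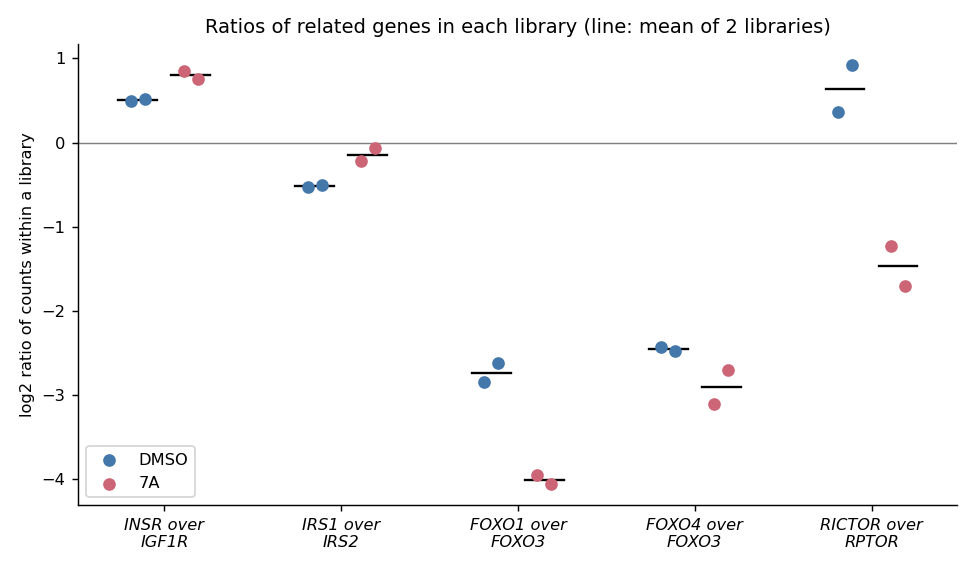
log2 ratio of the counts of related genes within each library (points: the 2 DMSO and the 2 7A libraries; lines: group means; 0 means equal counts). The 7A libraries lie below the DMSO libraries for FOXO1 over FOXO3 (log2 difference -1.27), FOXO4 over FOXO3 and RICTOR over RPTOR (-2.11), and above them for INSR over IGF1R and IRS1 over IRS2.

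Transcript length moved with the comparison as a whole, and most of the 10 genes are long. The tested genes were divided into 5 classes of nearly equal size by merged exon length. In the class of the longest (8112 bases and more), 41.2% were lower and 11.7% higher, with a median change of -0.43. In the class of the shortest (up to 2762 bases) 13.1% were lower and 36.3% higher, with a median of 0.32. INSR, IGF1R, IRS1, IRS2 and RICTOR are in class 5, the longest, FOXO1, FOXO3 and CCNG2 in class 4, with a median of -0.17, and FOXO4 and PIK3IP1 in class 2, with 0.15. IRS1, IRS2, FOXO3 and CCNG2 therefore lay above the median of their length class, and the other 6 below it.

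The fit was repeated with each library corrected for GC and length together, which put 30.6% of 14011 genes higher and 19.8% lower. The 4 falls kept their calls at smaller sizes. INSR gave -0.40 ± 0.11 (edgeR adjusted p 0.0255) and IGF1R -0.65 ± 0.11 (edgeR adjusted p 0.006). FOXO1 gave -0.97 ± 0.12 and RICTOR -0.74 ± 0.15, also called. The rise of CCNG2 was larger, at 1.17 ± 0.12. IRS1 then passed, at 0.70 ± 0.12 (edgeR adjusted p 0.00558), as did FOXO4, at -0.58 ± 0.13 (edgeR adjusted p 0.0137), so 2 of the 10 were higher and 5 lower. FOXO3 at 0.31 ± 0.11, IRS2 at 0.072 ± 0.10 and PIK3IP1 at -0.28 ± 0.16 did not pass. What makes the changes move with length was not tested, and a trend with GC by itself was not examined.

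**Figure D3:**
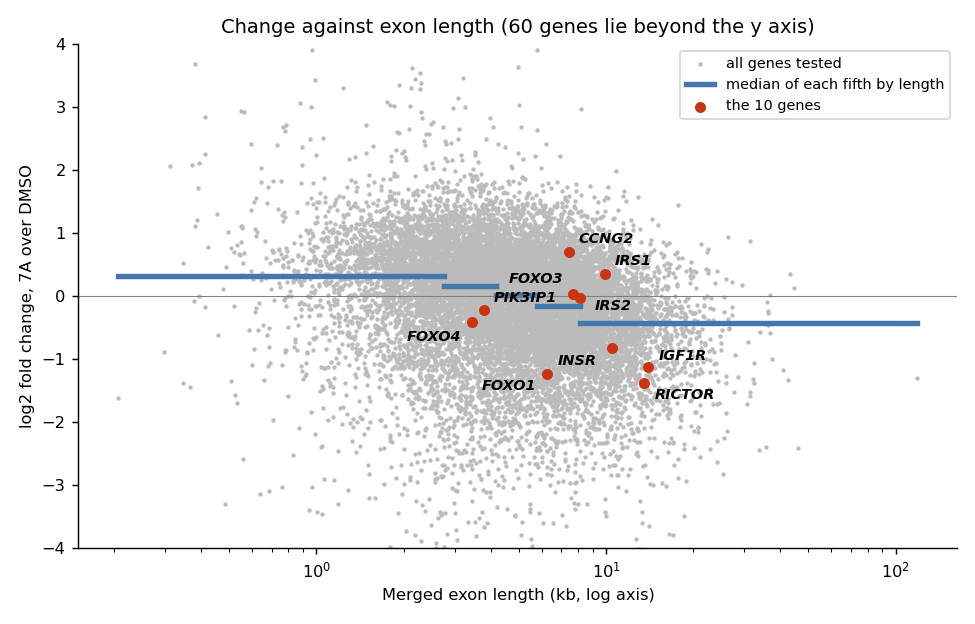
log2 fold change of 7A over DMSO against merged exon length (kb, log axis) for all genes tested (grey), with the median of each of 5 length classes (blue lines) and the 10 genes (red). 60 genes lie beyond the axis limit of 4. The medians run from a median of 0.32 for the shortest to -0.43 for the longest, and FOXO1, RICTOR, IGF1R and INSR lie below their class's line.

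**Figure D4:**
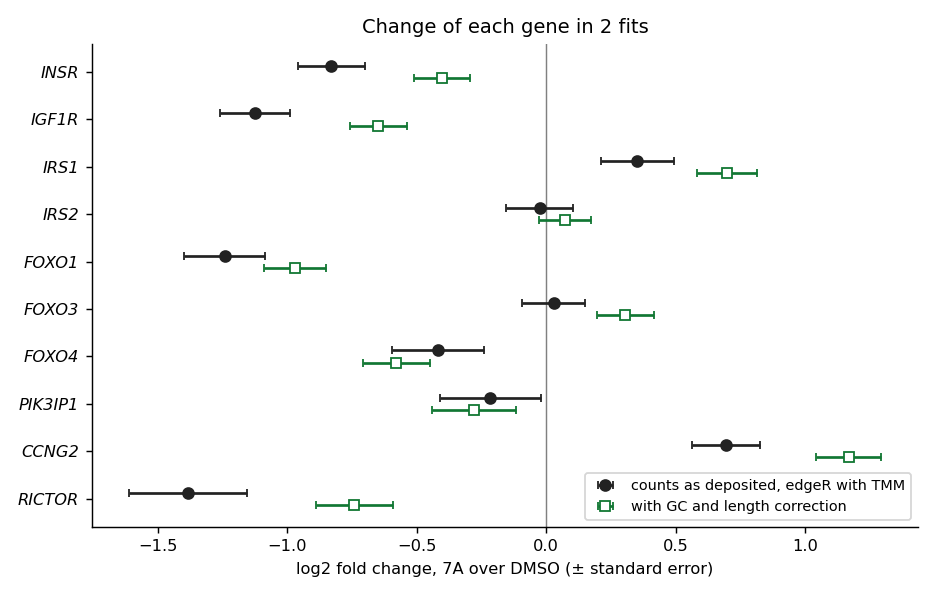
log2 fold change with its standard error for each of the 10 genes, from the counts as deposited (filled circles) and with each library corrected for GC and length (open squares). INSR moves from -0.83 to -0.40 and CCNG2 from 0.69 to 1.17, and FOXO1 from -1.24 to -0.97.

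Of 40 insulin and PI3K-AKT signalling genes other than those above, all tested, 6 rose and 17 fell. That is 15% and 42.5%, against 23.9% and 24.6% of all genes tested. Their median was -0.37 against -0.026 over all genes tested. PDPK1, which encodes the AKT-activating kinase PDK1, went from 81.8 and 72.4 CPM to 31.5 and 31.1 CPM (-1.30 ± 0.14, edgeR adjusted p 0.000945). SGK2, a kinase related to AKT, fell from 10.4 and 9.79 CPM to 1.84 and 1.65 CPM (-2.54 ± 0.21), and the glycogen synthase kinase gene GSK3A, an AKT substrate, rose from 44.2 and 48.8 CPM to 99.1 and 111 CPM (1.17 ± 0.14). These 40 genes are long, with a median of 7644 exonic bases against 4927 over all genes. With the correction for GC and length 10 were higher and 9 lower, against 30.6% and 19.8% of all genes so corrected. Their median was then -0.043. Without DMSO replicate 2, 3 were higher.

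Of 19 mTORC1 and mTORC2 genes, 8 rose and 3 fell, with a median of 0.28. That is 42.1% and 15.8%, against 23.9% and 24.6% of all genes tested. The median was 0.013 with library totals alone and 0.65 with the correction for GC and length. Leaving out 1 library also moved it, to 0.72 when DMSO replicate 1 was left out, and to 0.43 and 0.45 when 7A replicate 1 or 7A replicate 2 was. TELO2, which helps assemble MTOR complexes, rose by 1.40 ± 0.16, while RPS6KB1, which encodes the S6 kinase, and TSC1, a brake on mTORC1, fell by 1.18 ± 0.13 and 1.45 ± 0.17. The listed subunits of mTORC2 and its kinase were looked at because RICTOR fell, and so were chosen after values were seen. MLST8, shared by both complexes, rose from 27.6 and 20.7 CPM to 52.7 and 65.7 CPM (1.29 ± 0.20), and MAPKAP1, which encodes the mTORC2 subunit SIN1, from 54.5 and 52.6 CPM to 84.6 and 88.8 CPM (0.70 ± 0.13). MTOR, the kinase itself, read 67.6 and 76.4 CPM with DMSO and 73.8 and 70.5 CPM with 7A (0.0030 ± 0.13, edgeR adjusted p 0.988). With the correction for GC and length MTOR passed, at 0.40 ± 0.11 (edgeR adjusted p 0.0291). The mTORC2-associated PRR5 (0.25 ± 0.49, edgeR adjusted p 0.699), PRR5L (0.90 ± 0.36, edgeR adjusted p 0.0761) and DEPTOR, which inhibits MTOR (-0.27 ± 0.18, edgeR adjusted p 0.235), did not pass. Corrected for GC and length, PRR5L passed, at 1.10 ± 0.32 (edgeR adjusted p 0.0315), and PRR5 and DEPTOR did not. With the correction for GC and length 13 of the 19 were higher and 3 lower, against 30.6% and 19.8% of all genes so corrected.

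Other FOXO-responsive genes were split. Of 50 listed genes, 40 were tested, and 14 rose and 13 fell. That is 35% and 32.5%, against 23.9% and 24.6% of all genes tested. Their median was 0.17, and it was -0.0997 with library totals alone and -0.00091 with the correction for GC and length. It was 0.062 without 7A replicate 1 and 0.056 with upper-quartile scaling. SESN3, a sestrin gene that FOXO factors raise, fell from 33.7 and 35.5 CPM to 5.90 and 4.85 CPM (-2.69 ± 0.18, edgeR adjusted p 0.000471). Its relative SESN2, better known as a stress and ATF4 target, rose from 67.6 and 54.8 CPM to 192 and 211 CPM (1.72 ± 0.15). The ubiquitin ligase gene TRIM8 rose by 1.23 ± 0.12. The list mixes genes that FOXO factors raise and lower. Without DMSO replicate 1, 8 were lower.

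Of 37 FOXO regulators, 8 rose and 7 fell. That is 21.6% and 18.9%, below the 23.9% and 24.6% of all genes tested. Their median was 0.069. It turned to -0.20 with library totals alone and -0.041 with upper-quartile scaling and was 0.35 with the correction for GC and length. It was -0.0074 without 7A replicate 2, -0.027 without DMSO replicate 2 and 0.17 without DMSO replicate 1. CDK1 and the arginine methyltransferase gene PRMT1, whose products modify FOXO1, rose by 1.04 ± 0.12 and 1.29 ± 0.16. The acetyltransferase gene KAT2B fell by 1.37 ± 0.19. The correction for GC and length put 30.6% of all genes higher and 19.8% lower, which is the background for the regulators' corrected counts. With the correction for GC and length 19 were higher and 2 lower, and 3 were lower without DMSO replicate 1 and 4 without DMSO replicate 2.

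Of 12 genes for IGF ligands, their binding proteins and the scavenger receptor IGF2R, 6 were tested, and 2 rose and 1 fell. That is 33.3% and 16.7%, against 23.9% and 24.6% of all genes tested. Their median was 0.32 and their mean -0.14. IGFBP6 and IGFBP2, which encode carriers of the IGFs, rose by 0.75 ± 0.13 and 0.58 ± 0.13. Without DMSO replicate 2, and likewise without 7A replicate 2, only 1 of the tested genes was higher. IGFBP5, another carrier, fell from 0.821 and 1.04 CPM to 0.0865 and 0.163 CPM. IGF2, the 1 ligand gene that passed the filter, was added after its values were seen and read 34.6 and 37.7 CPM with DMSO and 38.3 and 36.7 CPM with 7A (0.052 ± 0.14, edgeR adjusted p 0.782).

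Among 8 close relatives of the 10 genes, 6 were tested. RPTOR, FOXK2 and FOXM1 rose and 0 fell, which is 50% and 0%, against 23.9% and 24.6% of all genes tested. The list median was 0.21. It was -0.054 with library totals alone, 0.104 with upper-quartile scaling and 0.44 with the correction for GC and length. It was 0.102 without 7A replicate 2 and 0.35 without 7A replicate 1. FOXM1, a forkhead factor of dividing cells that FOXO factors oppose, went from 25.5 and 25.3 CPM to 45.5 and 48.2 CPM (0.88 ± 0.14). FOXK2, a forkhead factor that insulin signalling also moves between cell compartments, rose by 0.51 ± 0.13, a call kept in 1 of the 4 fits that leave out a library (edgeR adjusted p up to 0.11). Its relative FOXK1 read 226 and 200.4 CPM with DMSO and 187 and 182 CPM with 7A (-0.21 ± 0.12, edgeR adjusted p 0.194).

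**Figure D5:**
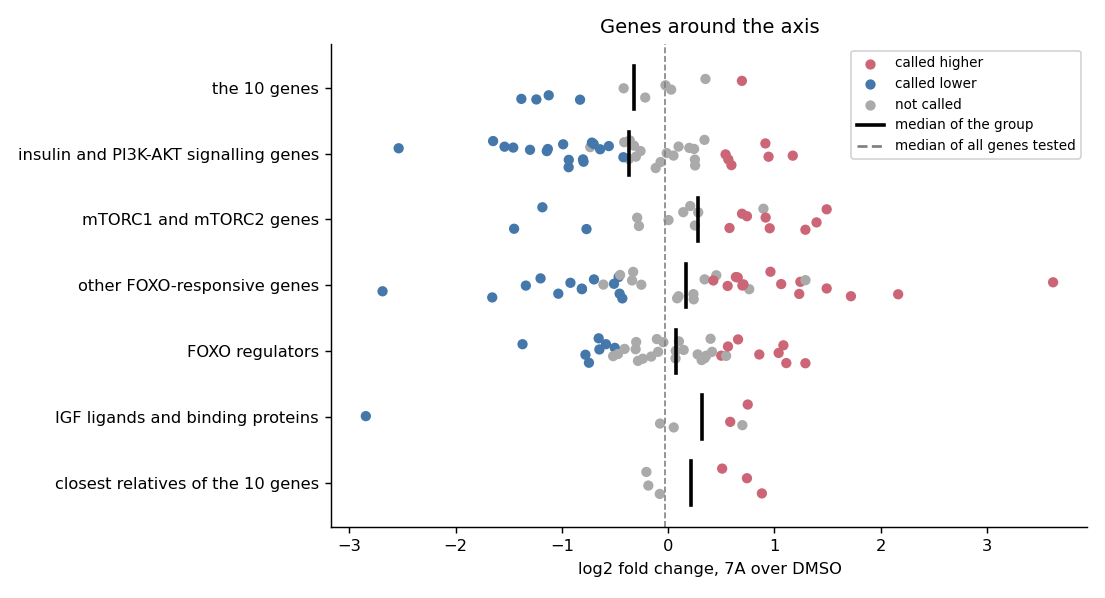
log2 fold change of 7A over DMSO for the 10 genes and for the tested genes of 6 lists around them (points; colour gives the edgeR call at an adjusted p of 0.05), with the median of each group (black bars) and of all genes tested (dashed line). The PI3K-AKT list lies left of the dashed line, at a median of -0.37, and the mTORC list right of it, at 0.28.

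IGF1R had the smallest adjusted p of the 10. By the distance between centred log2 CPM profiles over the 4 libraries, the genes most like it among 9754 with a mean of at least 10 CPM were TRAM2, UBASH3B, NFRKB, the gene whose symbol is CPM, and RPS6KA2. Their distances were 0.0252, 0.035, 0.0443, 0.0562 and 0.071 on the log2 scale, and their changes ran from -1.16 to -1.09.

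The libraries carried most of the 8 listed markers of an epithelial line. Summed epithelial markers (8 genes) read 3688 to 4528 CPM with DMSO and 7794 to 8147 CPM with 7A. Of the 7 tested 4 rose and 0 fell, against 23.9% and 24.6% of all genes tested. This list moved with 7A, and its part in the changes above was not tested. VIL1, CDX2 and CDH1 of this list are named after their values were seen. VIL1 was under 1 CPM throughout, and CDX2 read 12.2 and 12.8 CPM with DMSO and 9.23 and 10.5 CPM with 7A. CDH1 read 76.8 and 67.7 CPM with DMSO and 58.8 and 64.1 CPM with 7A. CLDN4, a tight-junction gene in it named after its values were seen, differed between the DMSO libraries, at 409 and 21.9 CPM. Of the leukocyte markers (6 genes), 5 were under 1 CPM throughout and CD3E was at 0, leaving CD68, a lysosomal gene, and the list summed to 31.5 to 37.3 CPM with DMSO and 56.2 to 91.8 CPM with 7A. Of the fibroblast markers (6 genes) 5 were under 1 CPM throughout, with COL1A2, DCN and LUM at 0, leaving COL1A1, whose 54.7 to 57.6 CPM with DMSO became 33.7 to 38.6 CPM with 7A. The 4 endothelial markers summed to 1.32 to 1.44 CPM with DMSO and 0.281 to 0.308 CPM with 7A. The 4 erythroid markers summed to 5.60 to 5.72 CPM with DMSO and 5.62 to 7.89 CPM with 7A, with HBB, the adult haemoglobin gene, at 0. The share of counts from mitochondrial genes was 6.59% and 7.73% with DMSO against 3.04% and 4.07% with 7A, and its part in the results was not tested.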

How the data were processed

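Raw counts per gene for 4 HCT116 libraries (2 DMSO, 2 7A) were used as deposited. The unit was read from the whole-number values with unequal library totals. No source used here names the aligner, counter, annotation or strand setting, and per the submitters' processing notes the builds hg38, mm10 and GRCm38 are named together. Messenger RNA libraries were made from 1.4 µg of total RNA, per the labels' protocols. Symbols, coordinates, merged exon lengths and the GC of the longest transcript come from GENCODE 29 on GRCh38, and 20224 of 20263 identifiers matched. Exons of IRS2, FOXO1, PIK3IP1 and RICTOR share 115, 269, 36 and 229 bases with another annotated gene, and reads in those bases are uncertain.

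The test was the robust quasi-likelihood F test of edgeR 4.0.16 (R 4.3.3) after TMM scaling and filterByExpr with a minimum count of 10, with Benjamini-Hochberg adjustment over 14026 genes, threshold 0.05. The standard error is the log2 fold change over the square root of F. The 10 genes, the gene lists and the motifs were chosen with earlier results of these data known. From each list the 3 genes with the smallest adjusted p are named, with at least 1 in each direction where both were called, as are the 8 close relatives and the 5 genes with the profile nearest to that of the member with the smallest adjusted p. Any other gene is said to be added after its values were seen. Alternatives were DESeq2 1.42.0, limma 3.58.1 (voom), 3 other scalings, no filter, a replicate block, a GC and length correction (natural splines of 5 df, fitted to log2 CPM with a prior count of 2), and each library left out. The profiles used a pseudocount of 0.5. The fits were tested on simulated data with far fewer changed genes than were called here. That test does not cover the scaling where so many genes change. Of genes with 1 to 20 counts, 63.9% to 64.9% had an even count, so counts may hold both mates of a pair, and the floor of 3 counts covers counting error only. Lengths and ratios used Python 3.11.15 and pandas 2.3.3, permutation tests scipy 1.17.1, and plots matplotlib 3.10.9.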

Additional observations from a re-analysis of the deposited data

How the results depend on the processing

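INSR, IGF1R, FOXO1 and CCNG2 kept their direction and call under all 13 alternatives, with ranges of -1.10 to -0.40, -1.39 to -0.65, -1.51 to -0.97 and 0.43 to 1.17. RICTOR ran from -1.65 to -0.73 and lost its call without 7A replicate 2 (range with a library left out -1.62 to -1.07). IRS2 turned positive with the GC and length correction (0.072, and 0.072 with the replicate block too), and ran from -0.103 to 0.0706 with a library left out. FOXO3 turned negative with library totals alone (-0.24) and upper-quartile scaling (-0.084), and ran from -0.052 to 0.127 with a library left out. Neither passed under any alternative, nor did PIK3IP1 (-0.48 to -0.14). IRS1 passed with the GC and length correction (0.70, and 0.70 with the replicate block) and ran from 0.25 to 0.46 with a library left out. FOXO4 passed with the correction (-0.58, and -0.58 with the block), library totals alone (-0.69) and upper-quartile scaling (-0.53), and ran from -0.61 to -0.23 with a library left out, without passing. With the correction, with or without the block, 2 of the 10 genes were higher, and with a library left out 1 to 2 were higher and 3 to 4 lower. Library totals alone move the median of all genes from -0.03 to -0.29, with 1951 genes higher and 4934 lower, and upper-quartile scaling moves it to -0.14. Calls over all genes were 4285 higher and 2772 lower with the correction and 2142 lower with the correction and block. They ran from 1925 to 3054 higher and 1939 to 2619 lower with a library left out. Of 146 genes in the 6 lists, 39 were higher and 41 lower, against 61 higher and 25 lower with the correction, 23 lower with the block added, and 27 to 40 higher and 29 to 36 lower with a library left out. Over all genes tested, 23.9% were higher and 24.6% lower, and with the correction 30.6% and 19.8%. With library totals alone, 3 PI3K-AKT genes were higher and 5 mTORC genes lower. So scaled, 5 FOXO regulators were higher and 12 lower, 1 IGF gene higher and 2 close relatives lower. The share of calls that were higher was 49.3%, and it was 28.3% with library totals alone, 60.7% with the correction and 63.3% with the block added. With the replicate number as a block, 1 of the 10 genes was higher and 4 lower, as without it, and 3029 genes were higher and 3187 lower in all. Nothing in the labels ties equal numbers, and the correlation of the replicates' deviations was -0.0503. The 5 ratio differences kept their sign with any library left out. The cause of these shifts was not tested. PIK3IP1 had the fewest counts of the 10 genes, 178 to 283 per library.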
